A study of Homo sapiens with 48 samples.

Results

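Glycolysis was followed through 10 genes, HK2, GPI, PFKP, ALDOA, TPI1, GAPDH, PGK1, PGAM1, ENO1 and LDHA, taken by name from a count table of 35535 genes. They were chosen by name with their log2 fold changes under CPI-0209 and their levels between lines already known, so the selection rests on these measured values, and the fold changes, calls and DMSO levels of these 10 genes are a description and carry no test. The counts come from RNA sequencing of 8 human bladder cancer cell lines, SW780, TCCSUP, HT1376, VMCUB, T24, HT1197, 639V and KU1919. In each line, cells exposed for 4 days to 250 nM CPI-0209, an inhibitor of the histone methyltransferase EZH2, were set against cells given DMSO, with 3 libraries per treatment, which makes 48 libraries in 16 groups. Apart from the line and the treatment, the labels name no genotype or further agent. HT1197, HT1376 and TCCSUP were grown in MEM with Earle's salts, SW780, VMCUB (spelled VMCUB1 in the growth label) and 639V in DMEM, KU1919 in RPMI and T24 in McCoy's 5A. Both treatments of a line shared their medium. Between lines grown in different media, medium and line cannot be told apart, while lines that shared a medium can be compared without that limit. Whether the 3 replicates of a group came from different cultures is not stated, and their spread may therefore be technical.

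Glycolysis splits glucose into pyruvate in the cytosol and yields ATP without oxygen, and lactate dehydrogenase then turns pyruvate into lactate and restores the NAD+ that the pathway needs. Tumour cells, those of the bladder included, often run this route at a high rate even where oxygen is present. Many of its enzyme genes are known targets of hypoxia-inducible factors, which bind a short core, ACGTG or GCGTG, in DNA, and of MYC, which binds the E-box CACGTG.

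The 10 genes lie on 8 chromosomes of GRCh38, as annotated by GENCODE 29. HK2 (chr2:74833981-74893359), GPI (chr19:34359480-34402413) and PFKP (chr10:3066333-3137712) encode the enzymes that trap and rearrange the sugar. ALDOA (chr16:30064164-30070457) and TPI1 (chr12:6867119-6870948) encode those that split it. GAPDH (chr12:6533927-6538374), PGK1 (chrX:77910739-78129296), PGAM1 (chr10:97426160-97433441) and ENO1 (chr1:8861000-8879250) encode the enzymes of the lower part, and LDHA (chr11:18394388-18408425) the lactate dehydrogenase A subunit. All but ENO1 lie on the plus strand.

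RefSeq promoter windows on GRCh38.p14, cut to the 250 bases before each annotated start, were found for all 10 genes, 18 windows in all. The letters ACGTG were present in 11 of these windows, in 8 of the 10 genes, against 18.5% of all 35116 windows in the table. The letters GCGTG were present in 7 windows of 6 genes, against 32.2% of all windows. The E-box letters CACGTG, which hold ACGTG on both strands, were present in 4 windows, 1 each of HK2, ALDOA, GAPDH and LDHA, against 6.3% of all windows. The windows of these genes were richer in G and C, with a median of 71.0% against 58.0% over all windows. ENO1 had no ACGTG in its window, and the only PGAM1 window held none of these motifs. Only the first windows of HK2, LDHA and ALDOA begin before the gene as GENCODE draws it. All other windows, those of PGAM1, PGK1 and ENO1 among them, lie inside it. A match of letters is not a binding site, and the lack of a match says nothing about a factor. Windows of 4 genes are printed because they span the cases, from many matches to no ACGTG, among genes whose counts are described below. Each is written 5′ to 3′ on the gene's own strand, with the letters ACGTG and those of the other motifs, searched on both strands, in capitals.
PGK1, chrX:78103998-78104247, plus strand: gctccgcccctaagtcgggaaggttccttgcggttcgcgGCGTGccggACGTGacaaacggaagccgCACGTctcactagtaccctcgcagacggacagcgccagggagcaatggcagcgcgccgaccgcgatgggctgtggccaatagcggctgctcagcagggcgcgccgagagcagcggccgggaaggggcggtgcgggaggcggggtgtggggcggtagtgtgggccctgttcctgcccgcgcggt
LDHA, first window, chr11:18394313-18394562, plus strand: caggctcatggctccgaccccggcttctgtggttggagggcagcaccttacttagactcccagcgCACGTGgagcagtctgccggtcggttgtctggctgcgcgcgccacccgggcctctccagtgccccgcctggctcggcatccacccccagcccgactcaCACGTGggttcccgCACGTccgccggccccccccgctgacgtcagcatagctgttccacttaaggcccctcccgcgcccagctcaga
HK2, first window, chr2:74833877-74834126, plus strand: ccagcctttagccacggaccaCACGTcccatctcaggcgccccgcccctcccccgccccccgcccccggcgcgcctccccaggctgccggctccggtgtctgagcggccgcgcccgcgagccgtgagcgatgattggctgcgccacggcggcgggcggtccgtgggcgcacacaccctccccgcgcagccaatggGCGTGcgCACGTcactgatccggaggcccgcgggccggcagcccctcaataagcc
ENO1, chr1:8878687-8878936, minus strand: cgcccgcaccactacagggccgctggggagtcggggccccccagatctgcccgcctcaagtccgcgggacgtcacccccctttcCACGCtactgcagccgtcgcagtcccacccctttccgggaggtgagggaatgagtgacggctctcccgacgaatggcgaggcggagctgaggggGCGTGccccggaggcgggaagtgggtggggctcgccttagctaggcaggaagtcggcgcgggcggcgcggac

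Library totals ranged from 26481418 to 50916911 counts, and the 10 genes together held 0.774% to 1.51% of them. Mitochondrial genes held 1.75% to 6.18% of counts, highest in the CPI-0209 libraries of SW780 and lowest in TCCSUP DMSO replicate 1. Replicates always differed by more than sampling noise, with a chi-square over degrees of freedom of 2.20 to 137.9, and every value of 18.1 or more came from a pair that held KU1919 CPI-0209 replicate 1, T24 CPI-0209 replicate 3, T24 DMSO replicate 2, TCCSUP DMSO replicate 1 or HT1376 DMSO replicate 1, or from the 3 VMCUB DMSO libraries. TCCSUP DMSO replicate 1 also had 1.75% mitochondrial counts, against 3.48% and 3.68% in its partners, and without it all 10 glycolytic genes were called lower in TCCSUP. The share of all genes called lower in that fit is not given. Epithelial keratins were present in every line, with KRT18 averaging 569 CPM (counts scaled to library size with TMM factors) or more, but KRT8 averaged only 126 CPM in TCCSUP and KRT19 only 6.80 CPM in 639V. CDH1 and EPCAM averaged 2.27 and 5.44 CPM in T24 and 0.737 and 1.15 CPM in 639V, and EPCAM 4.21 CPM in TCCSUP. The mesenchymal marker VIM averaged 587 CPM in 639V and 74.3 CPM in T24, and ZEB1 44.8 CPM in 639V, 40.0 CPM in T24 and 24.8 CPM in TCCSUP. TCCSUP carried the fibroblast markers COL1A1 and COL1A2 at 5215 and 3420 CPM, and the summed level of the 4 fibroblast markers there was 10421 to 10946 CPM in CPI-0209 libraries and 6699 to 8071 CPM in DMSO libraries. That sum was also higher with CPI-0209, without overlap, in every other line but HT1376, where it was lower. The summed mesenchymal markers were higher without overlap in every line but T24, with 224 to 251 CPM in CPI-0209 libraries and 199 to 213 CPM in DMSO libraries of SW780. The summed urothelial and epithelial markers were lower without overlap in 639V, TCCSUP and VMCUB, higher in HT1376 and overlapping in the other lines. The leukocyte marker PTPRC averaged 24.8 CPM in TCCSUP and at most 0.460 CPM in any other line, CD68 averaged 88.3 CPM in KU1919, and CD3E stayed at or below 0.533 CPM in all 48 libraries. The summed leukocyte markers were lower with CPI-0209, without overlap, in SW780, TCCSUP, T24, 639V and KU1919, higher in HT1376 and overlapping in VMCUB and HT1197, with 3.49 to 3.98 CPM in CPI-0209 libraries and 9.75 to 10.9 CPM in DMSO libraries of 639V. Of the endothelial markers, PECAM1 reached 12.4 CPM, CDH5 5.11 CPM and KDR 0.583 CPM, and their sum in HT1376 was 10.9 to 13.8 CPM in CPI-0209 libraries and 2.89 to 3.58 CPM in DMSO libraries. It was also higher without overlap in KU1919, T24 and VMCUB, and lower in HT1197 and in SW780, with 3.28 to 3.47 CPM in CPI-0209 libraries and 5.43 to 6.15 CPM in DMSO libraries of SW780. The erythroid marker HBB stayed at or below 0.210 CPM. The part of these markers in the responses was not tested.

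Because these are bulk libraries, fewer cells that express a gene and less RNA per cell cannot be told apart. The summed level of the 10 glycolytic genes was lower under CPI-0209 in the mean of every line, by 35.0% in SW780, 20.8% in TCCSUP, 15.3% in HT1376, 14.1% in VMCUB, 11.4% in T24, 11.2% in HT1197, 6.82% in 639V and 4.57% in KU1919. This sum mostly reflects the most abundant genes. In SW780 DMSO libraries GAPDH, ENO1 and ALDOA averaged 3522, 2260 and 1709 CPM of a mean sum of 10441 CPM. In SW780 the sum was 6809, 6441 and 7098 CPM with CPI-0209, against 10428, 10176 and 10720 CPM with DMSO. In TCCSUP it was 8109, 7594 and 8063 CPM with CPI-0209, against 9133, 9945 and 10922 CPM with DMSO. The treatments did not overlap in these lines, nor in HT1376, VMCUB, T24 and HT1197. They did in 639V, and in KU1919, where CPI-0209 replicate 1, at 13159 CPM, lay above all 3 DMSO libraries and the other CPI-0209 libraries, at 10180 and 10383 CPM, below them. The share of raw library totals gave the same picture, with 0.795% to 0.854% of counts in SW780 CPI-0209 libraries and 1.11% to 1.15% in SW780 DMSO libraries.

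**Figure D1:**
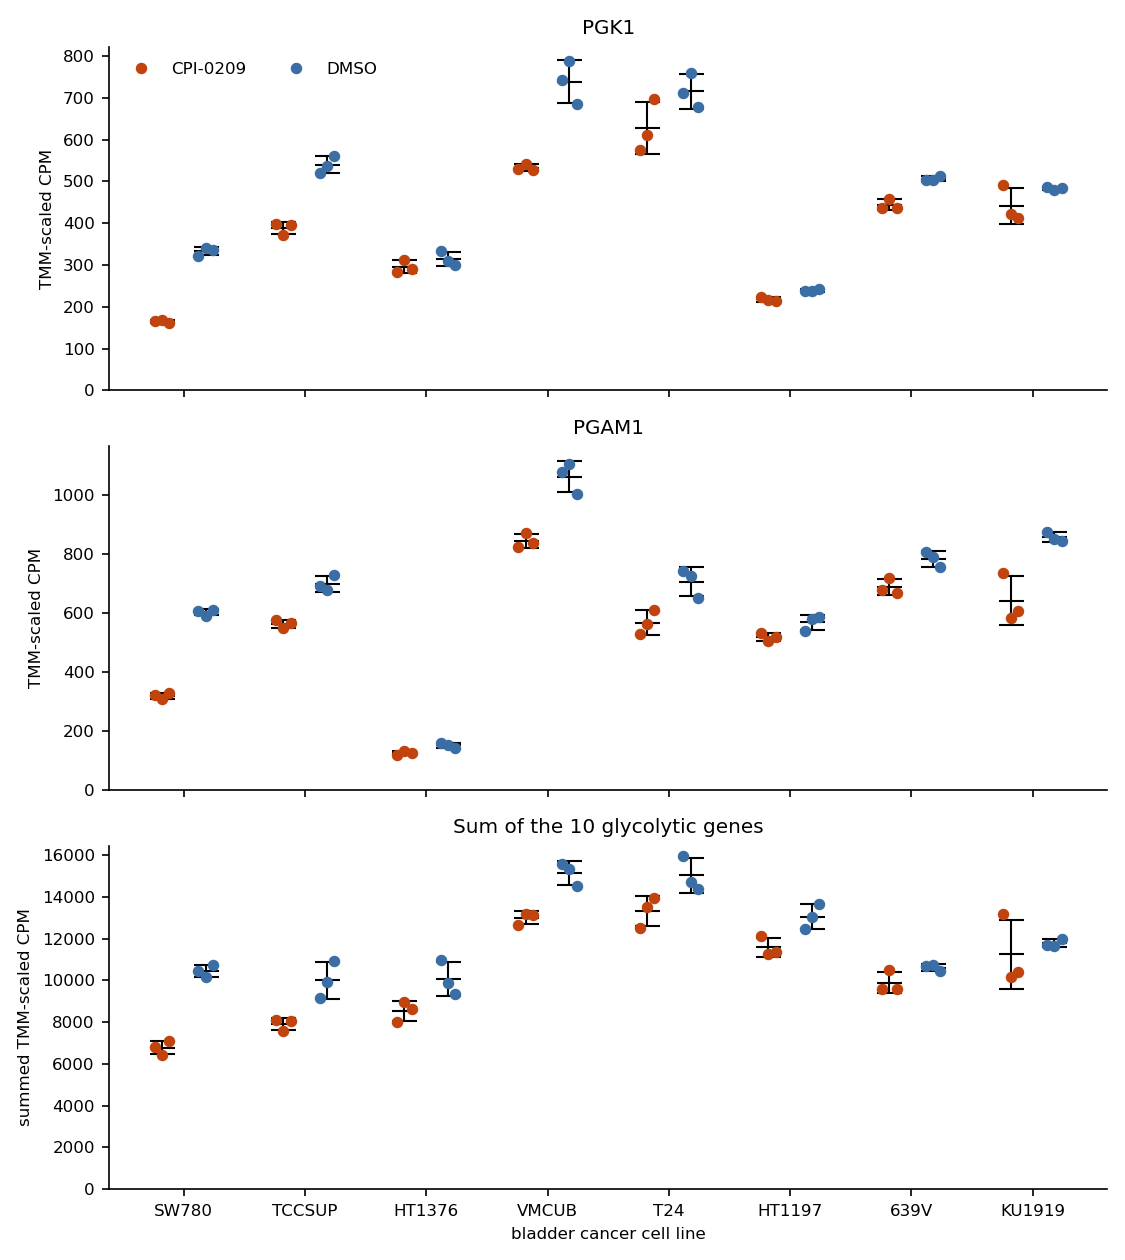
TMM-scaled CPM of PGK1 and PGAM1 and the sum of the 10 glycolytic genes in each library (points), with the mean and SD over 3 libraries (black), for CPI-0209 on the left and DMSO on the right of each line. The sum in SW780 averaged 6783 CPM with CPI-0209 and 10441 CPM with DMSO, and in KU1919 1 CPI-0209 library lay above the DMSO libraries.

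Counted gene by gene and line by line, 70 of the 80 log2 fold changes were below 0. At an adjusted p below 0.05 (edgeR's quasi-likelihood test, adjusted over all genes tested in that line), 38 of the 80 were called lower and 1 higher. By line, 9 of 10 were called lower in SW780, where 30.3% of all genes tested were called lower, 9 in TCCSUP (23.0% of all genes), 7 in HT1197 (7.80%), 5 in 639V (17.1%), 4 in VMCUB (11.0%), 3 in HT1376 (16%), 1 in KU1919 (2.40%) and 0 in T24 (0.930%). Among protein-coding genes of 100 CPM or more, the share called lower was 64.3% in SW780, 38.2% in TCCSUP, 23.6% in HT1197 and 30.5% in 639V. It was 22.5% in VMCUB, 25.5% in HT1376, 4.46% in KU1919 and 1.40% in T24. The 1 call in the higher direction was HK2 in HT1376, where 23.7% of all genes were called higher. That share was 30.8% in SW780, 25.7% in TCCSUP, 11.8% in HT1197, 22.1% in 639V, 16.4% in VMCUB, 9.30% in KU1919 and 9.37% in T24. In T24, where edgeR called none, 2 lay below an unadjusted p of 0.05, DESeq2 called 2, and the 10 log2 fold changes all lay below 0, between -0.30 and -0.08. The shares of all genes in T24 at an unadjusted p and with DESeq2 are not given. The median over the 10 genes was -0.85 in SW780, where the median over all genes was 0.02, and -0.42 in TCCSUP, where it was -0.00. In the other lines the median over the 10 genes lay between -0.17 in T24 and -0.11 in 639V, with medians over all genes between -0.01 and 0.04. Protein-coding genes of 100 CPM or more had medians of -0.23 in SW780 and -0.09 in TCCSUP. In the other lines these lay between -0.10 in KU1919 and -0.05 in HT1197. The 14 housekeeping genes listed as comparators had a median of -0.22 in VMCUB, below the -0.16 of the 10 genes there. Their medians were -0.09 in KU1919, -0.08 in T24, -0.07 in HT1197 and HT1376 and -0.06 in 639V. All 3 CPI-0209 libraries lay below all 3 DMSO libraries for 9 of the 10 genes in SW780 (29.6% of all genes), 9 in TCCSUP (32.0%), 8 in HT1197 (20.1%), 7 in VMCUB (29.3%), 6 in HT1376 (26.4%), 4 in 639V (23.0%), 3 in T24 (11.1%) and 3 in KU1919 (18.7%). The reverse held for HK2 in HT1376, as for 26.3% of all genes there. As the choice of genes rested on these contrasts, nothing is read from the counts beyond their description.

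Scaling to library totals instead of TMM raised the median log2 fold change of all genes by 0.20 in SW780 and by 0.09 or less in the other lines. Under library totals 31 of the 80 values were called lower and 3 higher, and 65 were below 0. One of the higher calls was HK2 in HT1376 (24.3% of all genes). The share of all genes called lower was then 4.40% in HT1197, 14.3% in HT1376, 1.77% in KU1919, 0.581% in T24, 19.7% in TCCSUP and 5.34% in VMCUB. In SW780 8 of the 10 were then called lower (16.8% of all genes) and PFKP higher (50.3% of all genes). In 639V 2 were called lower (10.3% of all genes) and PFKP higher (26.3% of all genes).

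HK2 encodes hexokinase 2, which phosphorylates glucose and so keeps it in the cell. Its level moved in both directions. In HT1376 it had 347, 329 and 341 CPM with CPI-0209, against 287, 308 and 323 CPM with DMSO, with all CPI-0209 libraries above all DMSO libraries (log2 fold change 0.18 ± 0.06, fit SE). That call was lost on leaving out any of the 3 CPI-0209 libraries or DMSO replicate 1 or 2, with values between 0.13 and 0.20. In TCCSUP it had 50.1, 51.3 and 47.4 CPM with CPI-0209 and 68.5, 67.1 and 66.2 CPM with DMSO, which do not overlap (-0.40 ± 0.05). In KU1919 it had 82.7, 117 and 127 CPM with CPI-0209, against 170, 172 and 171 CPM with DMSO. There the groups stood apart and the log2 fold change was -0.64 ± 0.17, but the spread of the CPI-0209 libraries was wide and the change was not called. Without KU1919 CPI-0209 replicate 1 it was -0.46 and called. HK2 was also called lower in SW780 (-0.28 ± 0.04) and 639V (-0.12 ± 0.04), and under library totals the SW780 and 639V calls were lost, at -0.08 and -0.07.

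GPI encodes glucose-6-phosphate isomerase, which turns glucose 6-phosphate into fructose 6-phosphate. It gave the largest fall of any of the 80 values, in SW780, with 288, 288 and 309 CPM with CPI-0209, against 667, 647 and 658 CPM with DMSO. The groups lay far apart, and the log2 fold change was -1.18 ± 0.04. In TCCSUP GPI had 259, 256 and 254 CPM with CPI-0209, against 331, 376 and 391 CPM with DMSO (-0.48 ± 0.06), again with no overlap. In the other lines it moved little, between -0.25 ± 0.15 in T24 and -0.01 ± 0.11 in VMCUB, and of these only HT1197, at -0.13 ± 0.03, was called, a call lost without CPI-0209 replicate 2 or DMSO replicate 2.

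PFKP encodes the platelet-type subunit of phosphofructokinase, the committed step of glycolysis. It stood out from the other genes in SW780, where it had 203.2, 205.7 and 225.2 CPM with CPI-0209, against 209.2, 202.5 and 200.4 CPM with DMSO. The groups overlapped, and the log2 fold change was 0.02 ± 0.05 under TMM, but 0.23 and called higher under library totals. It was called lower in TCCSUP (-0.21 ± 0.05) and HT1197 (-0.12 ± 0.03) and in no other line, and the HT1197 call was lost without DMSO replicate 2 or 3 and, at -0.09, under library totals. With 891.6 ± 14.6 CPM with CPI-0209 and 980.7 ± 27.8 CPM with DMSO (SD, n = 3 each), HT1197 had the highest level of PFKP of any line under either treatment.

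ALDOA encodes aldolase A, which splits fructose 1,6-bisphosphate. In SW780 it had 807, 751 and 835 CPM with CPI-0209, against 1709, 1634 and 1784 CPM with DMSO. Every CPI-0209 library there was below every DMSO library (-1.13 ± 0.05). TCCSUP gave 1233, 1146 and 1231 CPM with CPI-0209, against 1519, 1665 and 1863 CPM with DMSO (-0.45 ± 0.07). HT1376 gave 1827, 2130 and 2052 CPM with CPI-0209, against 2974, 2625 and 2421 CPM with DMSO (-0.39 ± 0.09). Neither line's groups overlapped. HT1197 and 639V, at -0.16 ± 0.04 and -0.17 ± 0.05, were also called, though in 639V 1 CPI-0209 library, at 969.6 CPM, lay above the lowest DMSO library, at 964.4 CPM. Without 639V CPI-0209 replicate 3 or DMSO replicate 2, and under library totals, the 639V call was lost.

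TPI1 encodes triose-phosphate isomerase, which interconverts the triose phosphates that aldolase makes. It was called lower in SW780 (-0.94 ± 0.05), TCCSUP (-0.46 ± 0.06), VMCUB (-0.38 ± 0.08) and HT1197 (-0.17 ± 0.05). In VMCUB it had 799, 837 and 834 CPM with CPI-0209, against 1123, 1217 and 996 CPM with DMSO, with no overlap. The VMCUB call was lost without any 1 of the CPI-0209 libraries or DMSO replicate 1, with values between -0.39 and -0.36, and the HT1197 call without replicate 2 or 3 of either treatment. In KU1919 it had 816.9, 559.8 and 552.4 CPM with CPI-0209, against 609.0, 602.5 and 619.5 CPM with DMSO. There CPI-0209 replicate 1 lay above the DMSO libraries and its partners below them, and leaving it out turned 0.07 into -0.11.

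GAPDH encodes glyceraldehyde-3-phosphate dehydrogenase, the enzyme that makes NADH in glycolysis and a common reference transcript. Its log2 fold change had a median of -0.16 over the 8 lines. In SW780 it had 2738, 2488 and 2843 CPM with CPI-0209, against 3500, 3408 and 3659 CPM with DMSO, without overlap (-0.42 ± 0.06). In HT1376 it had 1627, 1972 and 1880 CPM with CPI-0209, against 2629, 2306 and 2124 CPM with DMSO (-0.34 ± 0.10), a call lost without CPI-0209 replicate 1 or 3. 639V was the only other line called (-0.16 ± 0.05), and that call was lost without CPI-0209 replicate 3 and, at -0.11, under library totals. In TCCSUP the CPI-0209 libraries had 2582 to 2760 CPM and the DMSO libraries 2508 to 3523 CPM, so the groups overlapped (-0.14 ± 0.10), and without DMSO replicate 1 the value was -0.26 and called.

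PGK1 encodes phosphoglycerate kinase 1, which makes the first ATP of the pathway. It was called lower in 5 of 8 lines. In SW780 it had 166, 168 and 161 CPM with CPI-0209, against 322, 341 and 335 CPM with DMSO. The 3 CPI-0209 libraries lay close to each other and far below every DMSO library, with a log2 fold change of -1.04 ± 0.04. In TCCSUP it had 397, 372 and 396 CPM with CPI-0209, against 521, 538 and 561 CPM with DMSO (-0.44 ± 0.05). In VMCUB it had 529, 543 and 528 CPM with CPI-0209, against 744, 788 and 686 CPM with DMSO (-0.42 ± 0.07). Neither pair of groups overlapped. In 639V it had 436, 459 and 438 CPM with CPI-0209, against 504, 503 and 513 CPM with DMSO (-0.19 ± 0.04). In HT1197 it had 224, 216 and 214 CPM with CPI-0209, against 237, 239 and 244 CPM with DMSO (-0.12 ± 0.03). These smaller shifts also left the groups apart, and the HT1197 call was lost without CPI-0209 replicate 3. T24, KU1919 and HT1376 were not called, and their groups overlapped. T24 had 576, 611 and 697 CPM with CPI-0209, against 711, 760 and 677 CPM with DMSO (-0.18 ± 0.09). KU1919 had 492, 422 and 413 CPM with CPI-0209, against 486, 481 and 483 CPM with DMSO (-0.13 ± 0.08). HT1376 had 283, 313 and 291 CPM with CPI-0209, against 334, 310 and 300 CPM with DMSO (-0.06 ± 0.06). PGK1 was among the genes called in all 5 of those lines under library totals as well.

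PGAM1 encodes phosphoglycerate mutase 1, which moves the phosphate of 3-phosphoglycerate to the next carbon. It was the gene with the most calls, lower in 7 of 8 lines, and its 3 CPI-0209 libraries lay below its 3 DMSO libraries in all 8. In SW780 it had 321, 308 and 328 CPM with CPI-0209, against 607, 589 and 608 CPM with DMSO (-0.94 ± 0.04). In KU1919 it had 736, 582 and 605 CPM with CPI-0209, against 874, 850 and 842 CPM with DMSO (-0.42 ± 0.09). PGAM1 was the only 1 of the 10 genes called in KU1919. Without CPI-0209 replicate 1 its value was -0.50 and 6 of the 10 genes were called lower there, PGAM1, HK2, ALDOA, PGK1, ENO1 and LDHA. The share of all genes called lower without that library is not given. On leaving out any other single KU1919 library the PGAM1 call was lost, with values between -0.43 and -0.38. In T24 it had 530, 560 and 610 CPM with CPI-0209, against 741, 725 and 650 CPM with DMSO. These groups did not overlap, but the change of -0.30 ± 0.08 was not called. In VMCUB it had 822, 871 and 837 CPM with CPI-0209, against 1077, 1105 and 1002 CPM with DMSO (-0.28 ± 0.07). In TCCSUP it had 575, 548 and 565 CPM with CPI-0209, against 690, 675 and 728 CPM with DMSO (-0.27 ± 0.05). In both lines the lowest DMSO library was above the highest CPI-0209 library. In HT1376 it had 118, 130 and 124 CPM with CPI-0209, against 160, 151 and 142 CPM with DMSO (-0.26 ± 0.06). In 639V it had 676, 719 and 666 CPM with CPI-0209, against 805, 790 and 754 CPM with DMSO (-0.19 ± 0.04). In HT1197 it had 531, 505 and 518 CPM with CPI-0209, against 539, 578 and 584 CPM with DMSO (-0.11 ± 0.03). The gap was narrowest in HT1197. The HT1197 call was lost without replicate 2 or 3 of either treatment. The VMCUB call was lost without any 1 of the CPI-0209 libraries or DMSO replicate 1, with values between -0.30 and -0.26, and with a replicate block. Under library totals 5 of the 7 calls held, and those of HT1197 and VMCUB were lost.

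ENO1 encodes enolase 1, which makes phosphoenolpyruvate. It was called lower in SW780, with 1634, 1593 and 1714 CPM with CPI-0209, against 2278, 2227 and 2273 CPM with DMSO (-0.48 ± 0.05), and in TCCSUP, with 1638, 1514 and 1626 CPM with CPI-0209, against 1944, 1952 and 2102 CPM with DMSO (-0.29 ± 0.06). Neither pair overlapped. In the other 6 lines its log2 fold change lay between -0.17 in VMCUB and 0.03 in 639V, and none was called.

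LDHA encodes the lactate dehydrogenase subunit that favours lactate production. It was called lower in 4 lines. In HT1197 it had 1246, 1217 and 1199 CPM with CPI-0209, against 1475, 1484 and 1487 CPM with DMSO, apart by far more than either group's spread (-0.26 ± 0.03). In TCCSUP it had 424, 390 and 439 CPM with CPI-0209, against 569, 615 and 637 CPM with DMSO (-0.50 ± 0.06). In SW780 it had 176, 190 and 184 CPM with CPI-0209, against 301, 311 and 306 CPM with DMSO (-0.77 ± 0.04). In VMCUB it had 822, 830 and 819 CPM with CPI-0209, against 1100, 1141 and 1003 CPM with DMSO (-0.34 ± 0.07). The groups stood apart in all 4 lines. The VMCUB call was lost without any 1 of the CPI-0209 libraries or DMSO replicate 1, with values between -0.34 and -0.32, and with a replicate block. In 639V and HT1376 LDHA hardly differed, at -0.00 ± 0.04 and 0.02 ± 0.06.

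**Figure D2:**
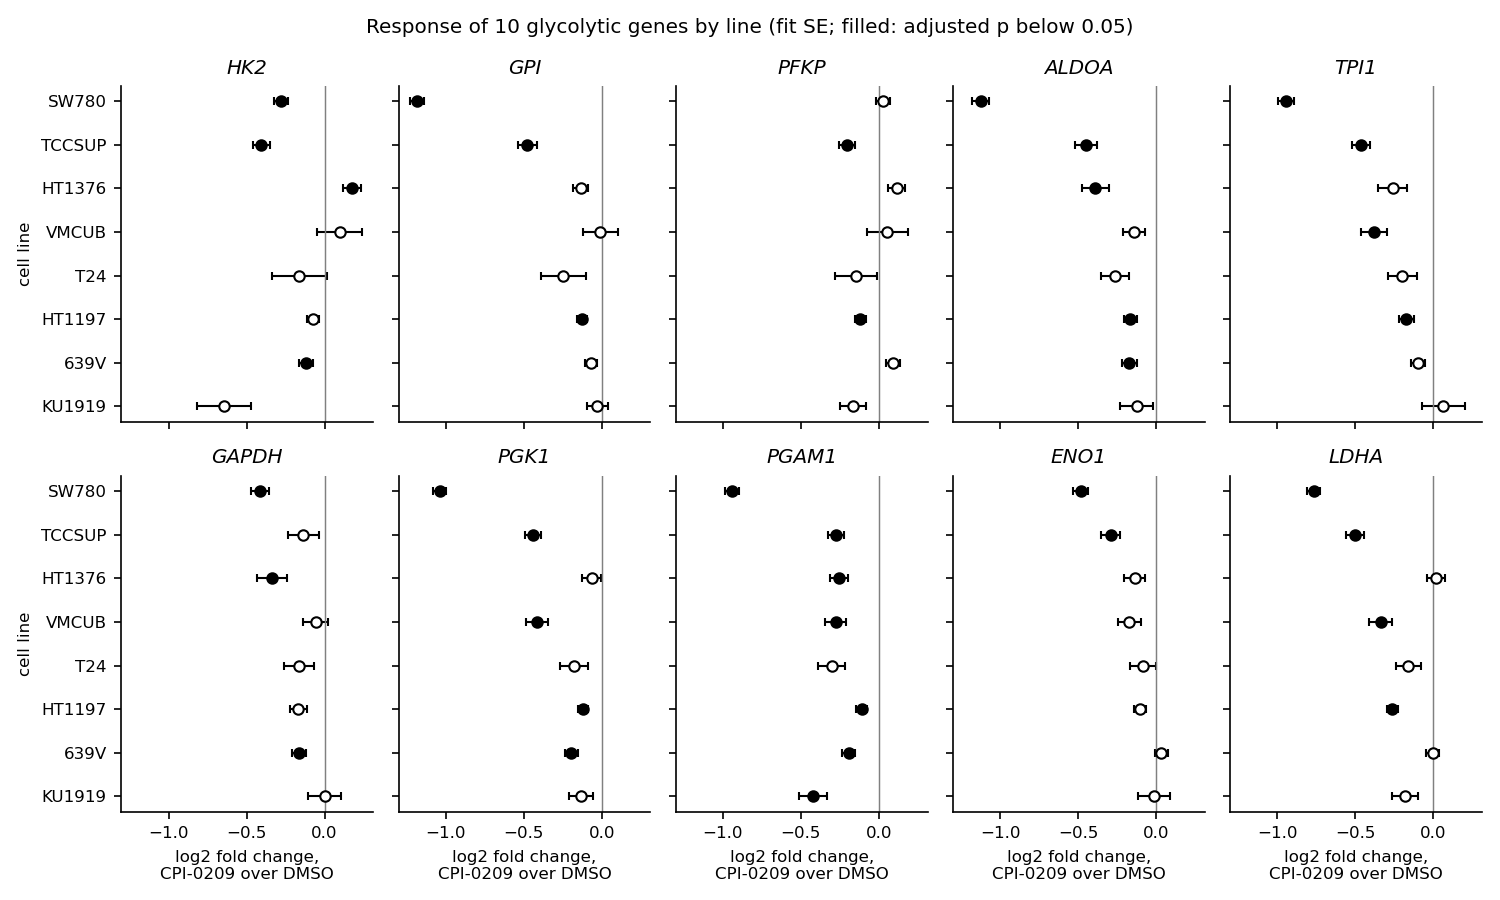
Log2 fold change of the 10 glycolytic genes (CPI-0209 over DMSO, horizontal axis, bars are the SE of the fit, 3 libraries per treatment) by line. Filled points have an adjusted p below 0.05, and SW780 holds the lowest value for every gene except HK2 and PFKP, from -1.18 for GPI to -0.42 for GAPDH.

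Over the 8 lines together, with a line as 1 replicate, the shared log2 fold changes ran from -0.37 ± 0.11 for ALDOA and -0.36 ± 0.08 for PGAM1 to -0.06 ± 0.05 for PFKP. PGAM1 was the only 1 of the 10 genes called lower in that fit, where 4.41% of all genes were called lower and 7.31% higher. At an unadjusted p below 0.05 (edgeR), 9 of the 10 were lower, as were 15.7% of all genes, and DESeq2 called 7 of the 10 lower, and 11.6% of all genes. PGK1 was at -0.34 ± 0.10. The median over the 10 genes was -0.30 and that over all genes -0.01. Leaving out SW780 left PGAM1 at -0.29, ALDOA at -0.27 and PGK1 at -0.24, and these 3 were then called. Leaving out HT1376, T24, TCCSUP or VMCUB instead left 0 of the 10 called, with PGAM1 at -0.37 each time. The share of all genes called in the fits with 1 line left out is not given.

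In SW780 abundant genes with short transcripts were also mostly called lower, and mitochondrial genes held 5.89% to 6.18% of counts in CPI-0209 libraries and 4.63% to 5.27% in DMSO libraries. Among protein-coding genes of 100 CPM or more, the median log2 fold change was -0.48 for transcripts under 2 kb, with 87.2% called lower, -0.23 for those of 2 kb to 6 kb and -0.03 for those of 6 kb or more. Of the 14 housekeeping genes listed as comparators, 11 were called lower and 1 higher there, with a median of -0.45 under TMM and -0.25 under library totals. A smooth trend of log2 fold change in transcript length and abundance, fitted in each line as a setting added after the data were seen, put the expected change at -0.59 for ALDOA and GAPDH, at -0.55 for PGAM1, at -0.34 for GPI and at -0.22 for PGK1. After subtraction GPI stood at -0.85, PGK1 at -0.82, ALDOA at -0.53, PGAM1 at -0.39, TPI1 at -0.35, LDHA at -0.34 and HK2 at -0.25. GAPDH turned to 0.17, ENO1 to 0.09 and PFKP reached 0.40. The trend used 1 annotated transcript per gene, of 4887 bases for PGK1 and 1830 bases for PGAM1, so the value for a gene expressed from another transcript would differ. VMCUB showed a like pattern by length, with medians of -0.35 under 2 kb and 0.12 at 6 kb or more, and after subtraction PGK1 stood at -0.40, PGAM1 at -0.03, TPI1 at -0.02 and ALDOA at 0.14. In KU1919 the medians ran the other way, at 0.04, -0.11 and -0.25 in the classes from short to long, and subtraction moved HK2 there to -0.46, against -0.64 before it, and PGK1 to 0.05, against -0.13. TCCSUP showed neither pattern, with -0.10, -0.09 and -0.10. In TCCSUP all 10 genes kept negative values after subtraction, from -0.44 for LDHA to -0.11 for GAPDH. The part of RNA length or quality in the calls was not tested beyond these values.

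**Figure D3:**
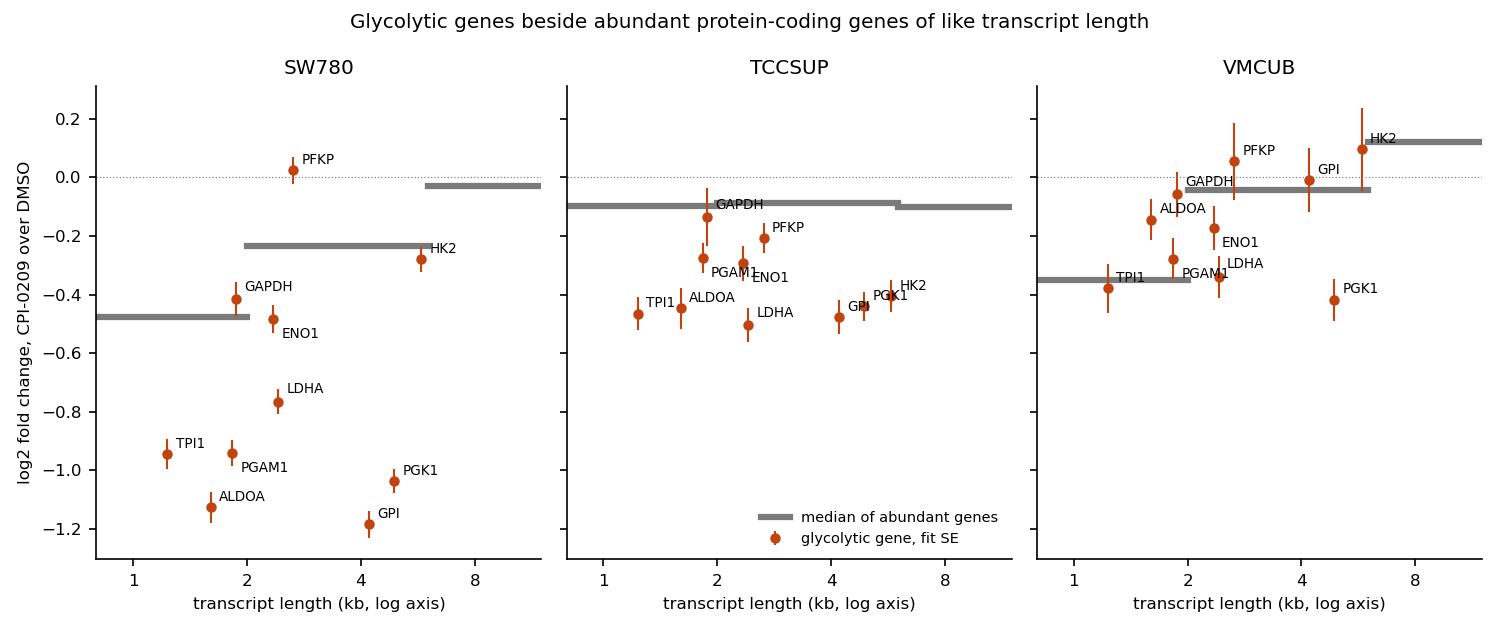
Log2 fold change (CPI-0209 over DMSO) of the 10 glycolytic genes (points, SE of the fit) against annotated transcript length in kb on a log axis, with the median of protein-coding genes of 100 CPM or more in 3 length classes (grey bars), for SW780, TCCSUP and VMCUB. In SW780 PGK1 and GPI lie at -1.04 and -1.18 beside a median of -0.23 for their length class, and in TCCSUP the 3 medians lie between -0.10 and -0.09.

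Levels in DMSO libraries are given as a description. Per kilobase of annotated transcript, the median line had 2056 CPM per kb of GAPDH, 1058 of ALDOA, 1042 of ENO1, 576 of TPI1, 387 of LDHA, 383 of PGAM1, 109 of PFKP, 101 of PGK1, 79.7 of GPI and 18.7 of HK2. GAPDH varied least between lines, with 4234 ± 317 CPM in HT1197 and 2353 ± 256 CPM in HT1376 (SD, n = 3 each), 1.80 times apart. PGAM1 varied most, 7.03 times, with 1061 ± 53 CPM in VMCUB and 151 ± 9 CPM in HT1376.

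In DMSO libraries PGAM1 ran in the order VMCUB, KU1919 at 855 CPM, 639V at 783 CPM, T24 at 705 CPM, TCCSUP at 698 CPM, SW780 at 601 CPM, HT1197 at 567 CPM and HT1376. Only T24 and TCCSUP overlapped among neighbours in that order, and HT1376 lay well below all others. PGK1 was highest in VMCUB at 739 CPM and T24 at 716 CPM, which overlapped, then fell away through TCCSUP at 540 CPM, 639V at 507 CPM, KU1919 at 483 CPM, SW780 at 333 CPM and HT1376 at 315 CPM, the last pair overlapping, to HT1197 at 240 CPM. LDHA had no overlapping neighbours at all, with T24 at 1751 CPM, HT1197 at 1482 CPM, HT1376 at 1199 CPM, VMCUB at 1081 CPM, 639V at 791 CPM, KU1919 at 742 CPM, TCCSUP at 607 CPM and SW780 at 306 CPM.

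HT1376 had the highest DMSO level of HK2, at 306 CPM, and of ALDOA, at 2673 CPM, and the lowest of GPI, TPI1, GAPDH and PGAM1, at 122, 412, 2353 and 151 CPM. KU1919 was next for HK2 at 171 CPM, and TCCSUP was lowest at 67.3 CPM. PFKP stood at 981 CPM in HT1197, apart from T24 and TCCSUP, the next lines, at 352 and 349 CPM, and was lowest in 639V at 193 CPM. GPI was highest in VMCUB and SW780, at 757 and 657 CPM, which overlapped. ENO1 was highest in T24 and VMCUB, at 4198 and 4120 CPM, also overlapping, and lowest in 639V at 1675 CPM. TPI1 was highest in T24, 639V and VMCUB, at 1131, 1114 and 1112 CPM, with ranges that overlapped from one to the next.

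**Figure D4:**
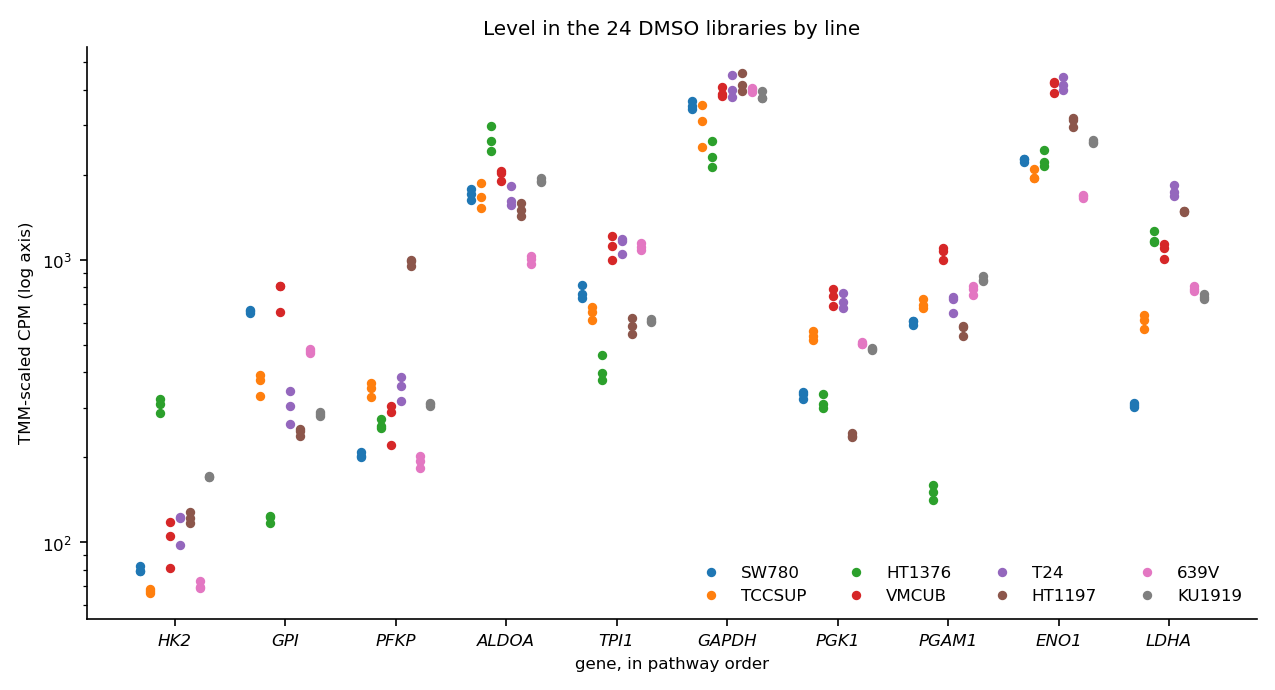
TMM-scaled CPM of the 10 glycolytic genes, in pathway order, in the 3 DMSO libraries of each of 8 lines, on a log axis. PGAM1 and GPI in HT1376, at 151 and 122 CPM, and PFKP in HT1197, at 981 CPM, stand away from the other lines.

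Across the 8 lines, the log2 fold changes of the 8 genes other than HK2 and PFKP ran together, with a median Pearson r of 0.86 over their 28 pairs (range 0.30 to 0.98). The 8 points share the same libraries, and 1 line carried most of this, since without SW780 the median was 0.33 (range -0.49 to 0.90). The 17 pairs with HK2 or PFKP had a median of 0.00. In DMSO levels the 28 pairs had a median of 0.29 over the 8 lines, with a range from -0.65 to 0.81.

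Among 9938 genes outside the lists, those whose response was most like that of PGK1 over the 24 CPI-0209 libraries, each taken against the DMSO mean of its line, were EIF5A (r = 0.97), FN3KRP, CAPZB, SLC39A1 and KDELR2. EIF5A, a translation factor, had a log2 fold change of -1.03 in SW780 and -0.42 in TCCSUP. Those most like PGAM1 were ARPC1A (r = 0.96), ASF1B, RBBP7, POLR2E and RAB5C. With PGK1 itself, TPI1 had r = 0.91 and rank 120 in this order, LDHA 0.90, PGAM1 0.85 and HK2 -0.00, so that many genes outside glycolysis followed PGK1 more closely than the other glycolytic genes did. In DMSO level over the 8 lines the nearest to PGK1 were PHAX (r = 0.98), PAQR4, CHCHD3, SPC24 and RBMX, and to PGAM1 DEF8 (r = 0.99), UBE2E3, ZNF22, DAGLA and NDUFB8. These points share libraries and depth, and the values are a description.

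The rest of the pathway was read from lists of related genes, tested gene by gene across the whole table. These lists were also chosen with earlier results of these data known, which limits what their counts and p can show. With the housekeeping comparators included, the response differed between lines for 84.6% of the related genes (edgeR's F test over 48 libraries, adjusted over all genes), as it did for 58.7% of all genes tested. In the shared fit, used for every list below, 7.31% of all genes were called higher and 4.41% lower. For single lines the share of all genes at an unadjusted p below 0.05 is not given. Of 20 other glycolytic enzymes, tissue isoforms and the pyruvate kinase genes among them, 10 to 13 were tested in a line. In SW780 6 of 11 were called lower and 3 higher (30.3% and 30.8% of all genes), in TCCSUP 4 and 0 of 11 (23.0% and 25.7%), in 639V 3 and 2 of 10 (17.1% and 22.1%), in HT1376 2 and 4 of 11 (16% and 23.7%), in HT1197 1 and 3 of 12 (7.80% and 11.8%) and in VMCUB 1 and 1 of 11 (11.0% and 16.4%). In KU1919 and T24 (2.40% and 0.930% of all genes lower, 9.30% and 9.37% higher) edgeR called 0 in either direction, with 0 lower and 2 higher in KU1919 and 1 each way in T24 at an unadjusted p below 0.05. In the shared fit edgeR called 0 of 14 in either direction, with 1 higher and 3 lower at an unadjusted p below 0.05, while 11.7% of all genes were called. ALDOC, the aldolase of brain, fell in SW780 to 11.3 ± 0.1 CPM with CPI-0209, against 22.3 ± 0.9 CPM with DMSO (SD, n = 3 each; -1.01 ± 0.06, adjusted p = 4.5e-11), and in HT1376 to 10.7 ± 1.0 CPM, against 18.9 ± 2.5 CPM (-0.79 ± 0.11, adjusted p = 3.59e-04). ENO2, the neuronal enolase, rose in VMCUB to 27.2 ± 0.4 CPM with CPI-0209, against 17.0 ± 2.3 CPM with DMSO (0.73 ± 0.11, adjusted p = 0.00459). PKM, the main pyruvate kinase and the step between ENO1 and LDHA, is outside the naming rule and was looked up after its values were seen. It fell in SW780 to 1584 ± 74 CPM with CPI-0209, against 3046 ± 27 CPM with DMSO (-0.97, adjusted p = 1.1e-11), and was also called lower in 639V (-0.44), TCCSUP (-0.20) and HT1197 (-0.16).

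Glucose and lactate transporters moved in both directions. Called higher and lower were 2 and 5 of 11 in SW780 (30.8% and 30.3% of all genes). In TCCSUP they were 3 and 3 of 11 (25.7% and 23.0%). They were 6 and 2 of 13 in HT1376 (23.7% and 16%) and 4 and 2 of 12 in 639V (22.1% and 17.1%). VMCUB had 4 and 3 of 11 (16.4% and 11.0%) and HT1197 4 and 1 of 11 (11.8% and 7.80%). T24 had 3 and 0 of 11 (9.37% and 0.930%) and KU1919 2 and 2 of 12 (9.30% and 2.40%). In the shared fit 2 of 13 were called higher and 0 lower (7.31% and 4.41% of all genes). They were SLC2A4, the insulin-responsive glucose transporter (1.02 ± 0.22, adjusted p = 0.0250), and SLC2A12 (0.96 ± 0.22, adjusted p = 0.0288), both at low levels, with SLC2A12 at 11.8 ± 0.3 CPM with CPI-0209 and 5.63 ± 0.75 CPM with DMSO in TCCSUP, where it was called higher (1.10 ± 0.10, adjusted p = 9.39e-07). SLC2A6 rose in HT1376 to 43.7 ± 2.8 CPM with CPI-0209, against 11.7 ± 0.4 CPM with DMSO (1.92 ± 0.07, adjusted p = 4.4e-08). SLC2A3, a high-affinity glucose transporter, rose in HT1197 to 874 ± 28 CPM with CPI-0209, against 599 ± 23 CPM with DMSO (0.56 ± 0.04, adjusted p = 3.73e-08), and SLC2A14 with it (0.55 ± 0.07, adjusted p = 2.97e-05). SLC2A3 and SLC2A14 are close copies of each other, so the split of reads between them is uncertain. SLC16A1, a lactate carrier, fell in KU1919 to 273 ± 10 CPM with CPI-0209, against 380 ± 3 CPM with DMSO (-0.48 ± 0.08, adjusted p = 0.00858), and BSG, the chaperone of these carriers, fell in SW780 to 154 ± 8 CPM, against 338 ± 10 CPM (-1.16 ± 0.05, adjusted p = 3.43e-13).

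Among 15 genes that steer flux, PDK1, a kinase that inhibits pyruvate dehydrogenase, was the only gene called in the shared fit (-0.26 ± 0.07, adjusted p = 0.0401). By line, 5 of 15 were called higher and 4 lower in SW780, near the 30.8% and 30.3% of all genes there. In TCCSUP 5 were called higher and 7 lower of 14 (25.7% and 23.0% of all genes). 639V had 4 and 1 of 14 (22.1% and 17.1%) and HT1376 3 and 3 of 14 (23.7% and 16%). VMCUB had 3 and 0 of 14 (16.4% and 11.0%) and HT1197 3 and 0 of 13 (11.8% and 7.80%). In KU1919 and T24 edgeR called 0 (9.30% and 9.37% of all genes higher, 2.40% and 0.930% lower). At an unadjusted p below 0.05, edgeR gave 2 higher and 1 lower in KU1919 and 1 each way in T24. PFKFB3, which makes the activator of phosphofructokinase, rose in HT1197 to 25.7 ± 0.7 CPM with CPI-0209, against 19.5 ± 1.1 CPM with DMSO (0.42 ± 0.05, adjusted p = 3.09e-05). TIGAR, which degrades that activator, fell in 639V to 18.9 ± 1.2 CPM with CPI-0209, against 28.2 ± 1.7 CPM with DMSO (-0.57 ± 0.06, adjusted p = 4.59e-06).

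Genes of the hypoxia-inducible factor system and their targets were called in both directions. Of 9 system genes, 4 were called lower and 1 higher in SW780 (30.3% and 30.8% of all genes). Lower and higher calls were 5 and 2 in TCCSUP (23.0% and 25.7%) and 3 and 1 in HT1376 (16% and 23.7%). They were 1 and 2 in 639V (17.1% and 22.1%) and 1 and 1 in KU1919 (2.40% and 9.30%). They were 0 and 2 in VMCUB (11.0% and 16.4%). HT1197 and T24 each had 0 and 1 (7.80% and 11.8%, 0.930% and 9.37%). In the shared fit EGLN1, a prolyl hydroxylase that marks hypoxia-inducible factors for decay, was called lower (-0.22 ± 0.06, adjusted p = 0.0407), the only 1 of 9 genes of that system. HIF1A was at -0.16 ± 0.07, VHL at -0.14 ± 0.04 and ARNT at -0.05 ± 0.07, none of them called. Of 20 hypoxia-inducible genes, CA12, a carbonic anhydrase, was called higher (1.61 ± 0.37, adjusted p = 0.0292), and P4HA1 (-0.32 ± 0.07, adjusted p = 0.0236) and ERO1A (-0.21 ± 0.06, adjusted p = 0.0467) were called lower. In SW780 11 of 19 hypoxia-inducible genes were called higher and 5 lower (30.8% and 30.3% of all genes), with a median of 0.19. In TCCSUP 6 were called higher and 8 lower of 20 (25.7% and 23.0% of all genes), with a median of -0.04. HT1376 had 6 higher and 6 lower of 19 (23.7% and 16%) and 639V 6 and 3 of 20 (22.1% and 17.1%). VMCUB had 3 and 5 of 20 (16.4% and 11.0%) and HT1197 3 and 1 of 18 (11.8% and 7.80%). KU1919 had 4 and 2 of 19 (9.30% and 2.40%) and T24 3 and 2 of 19 (9.37% and 0.930%). The part of hypoxia-inducible factors in the glycolytic responses was not tested. EGLN3, another prolyl hydroxylase, rose in HT1197 to 49.8 ± 1.8 CPM with CPI-0209, against 27.9 ± 0.8 CPM with DMSO (0.85 ± 0.04, adjusted p = 2.54e-09). EPAS1, which encodes HIF-2 alpha, rose in VMCUB to 53.5 ± 2.1 CPM, against 21.9 ± 3.2 CPM with DMSO (1.34 ± 0.12, adjusted p = 5.08e-04), and in 639V to 26.1 ± 0.3 CPM, against 12.7 ± 0.2 CPM (1.04 ± 0.05, adjusted p = 2.28e-09). CA12 rose in HT1376 to 26.5 ± 1.1 CPM with CPI-0209, against 2.87 ± 0.42 CPM with DMSO (3.24 ± 0.10, adjusted p = 2.8e-08). It also rose in T24 to 22.8 ± 1.3 CPM, against 5.95 ± 0.78 CPM (1.96 ± 0.14, adjusted p = 2.91e-04).

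Further hypoxia-inducible genes differed by line. ADM, which encodes adrenomedullin, rose in KU1919 to 12.8 ± 2.1 CPM with CPI-0209, against 2.14 ± 0.41 CPM with DMSO (2.56 ± 0.17, adjusted p = 1.90e-04). It fell in VMCUB to 49.7 ± 2.6 CPM, against 82.3 ± 6.2 CPM (-0.67 ± 0.07, adjusted p = 0.00115), and in T24 to 60.0 ± 6.5 CPM, against 92.2 ± 11.7 CPM (-0.61 ± 0.11, adjusted p = 0.0121). NDRG1 rose in T24 (0.90 ± 0.16, adjusted p = 0.0117) and 639V (0.60 ± 0.08, adjusted p = 2.82e-05), and P4HA2, a collagen prolyl hydroxylase, in HT1376 (0.69 ± 0.07, adjusted p = 3.42e-05) and 639V (0.55 ± 0.05, adjusted p = 4.79e-07). In TCCSUP the MYC antagonist MXI1 rose (1.09 ± 0.08, adjusted p = 1.02e-07), while CA9 (-1.02 ± 0.11, adjusted p = 5.76e-06) and ANKRD37 (-1.09 ± 0.11, adjusted p = 3.61e-06) fell. ANGPTL4 fell in VMCUB to 11.8 ± 0.7 CPM, against 30.9 ± 1.3 CPM with DMSO (-1.33 ± 0.07, adjusted p = 8.37e-05).

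Most genes of the routes that leave or follow glycolysis were called lower in SW780. In the pentose phosphate list and its side branches, 13 of 14 genes were called lower and 1 higher in SW780 (30.3% and 30.8% of all genes), where 64.3% of all protein-coding genes of 100 CPM or more were called lower. Called lower and higher were 7 and 1 of 14 in TCCSUP (23.0% and 25.7% of all genes). They were 8 and 2 of 14 in 639V (17.1% and 22.1%) and 8 and 0 of 13 in HT1376 (16% and 23.7%). VMCUB had 4 and 0 of 13 (11.0% and 16.4%) and HT1197 3 and 0 of 13 (7.80% and 11.8%). Of protein-coding genes of 100 CPM or more, 38.2% were called lower in TCCSUP, 30.5% in 639V and 25.5% in HT1376. That share was 22.5% in VMCUB and 23.6% in HT1197. In KU1919 and T24 edgeR called 0 (2.40% and 0.930% of all genes lower, 9.30% and 9.37% higher). At an unadjusted p below 0.05, edgeR gave 1 each way in KU1919 and 3 lower and 0 higher in T24. PGD, the enzyme that makes ribulose 5-phosphate, fell in SW780 to 205 ± 4 CPM with CPI-0209, against 485 ± 7 CPM with DMSO (-1.27 ± 0.04, adjusted p = 2.18e-14), and in HT1376 to 139 ± 5 CPM, against 220 ± 8 CPM (-0.63 ± 0.05, adjusted p = 1.11e-05). In the shared fit TKT (-0.26 ± 0.07, adjusted p = 0.0461), RPE (-0.23 ± 0.05, adjusted p = 0.0281) and GFPT1 (-0.22 ± 0.05, adjusted p = 0.0246) were called lower, 3 of 14. Of 16 tricarboxylic acid cycle genes, 15 were called lower in SW780 (30.3% of all genes), 7 in TCCSUP (23.0%), 4 in 639V (17.1%), 3 in HT1376 (16%), 1 in HT1197 (7.80%) and 0 in VMCUB (11.0%), T24 (0.930%) and KU1919 (2.40%). The counts in HT1376 and HT1197 were near those shares. In TCCSUP the count was near the 38.2% called lower among protein-coding genes of 100 CPM or more. That share was 64.3% in SW780. Calls in the higher direction numbered 2 in HT1376 (23.7% of all genes) and 1 in 639V (22.1%). They numbered 0 in the other 6 lines, where 9.30% (KU1919) to 30.8% (SW780) of all genes were called higher. At an unadjusted p below 0.05 (edgeR), 3 were lower and 1 higher in VMCUB, 1 lower and 3 higher in KU1919, and 0 either way in T24. SDHC, a subunit of succinate dehydrogenase, fell in SW780 to 60.4 ± 0.3 CPM with CPI-0209, against 133 ± 3 CPM with DMSO (-1.16 ± 0.04, adjusted p = 6.67e-14). Of the gluconeogenesis genes tested, 2 were called higher and 4 lower of 6 in SW780 (30.8% and 30.3% of all genes). In TCCSUP 1 was called higher and 2 lower of 5 (25.7% and 23.0%). Called higher were 3 of 7 in HT1376 (23.7%), 3 of 6 in 639V (22.1%) and 3 of 6 in VMCUB (16.4%). The count was 1 of 5 in HT1197 (11.8%), 1 of 6 in KU1919 (9.30%) and 1 of 5 in T24 (9.37%). In these other 6 lines 0 were called lower, beside the shares of all genes called lower given above. At an unadjusted p below 0.05, 1 was lower in HT1197 and 0 in the remaining 5 lines. The shared fit called 0 of 6, with 1 higher and 0 lower at an unadjusted p below 0.05 (edgeR). The housekeeping genes HPRT1 (-0.40 ± 0.10, adjusted p = 0.0348) and TFRC (-0.28 ± 0.05, adjusted p = 0.0169) were called lower in the shared fit too, and PPIA fell in SW780 to 630 ± 12 CPM, against 1219 ± 34 CPM with DMSO (-0.98 ± 0.05, adjusted p = 1.86e-12).

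Processed pseudogenes and the close copy PGAM4 could in principle take reads of these genes. Each such copy held at most 0.189% of the counts of its parent over the 48 libraries. Exons of GPI, PFKP, ALDOA and PGK1 overlap other genes on the same strand in GENCODE 29, and those of HK2, ALDOA, TPI1, GAPDH and ENO1 overlap genes on the opposite strand. The strand setting of the counting is unknown here, so their counts are uncertain to the extent that the counting split such reads.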

How the data were processed

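RNA sequencing counts of 48 libraries (8 lines, CPI-0209 and DMSO, 3 libraries each) were taken as deposited. The authors deposited whole-number counts per gene, and the submitters' processing notes name STAR 2.7.3a, RSEM 1.3.1 and hg38, with no order or settings. Totals were 26481418 to 50916911 counts per library, and 0 entries named no gene. A table of gene names gave symbols to 35414 of 35535 genes, and GENCODE 29 gave transcript lengths for 35497.

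Each line was fitted on its own 6 libraries with edgeR 4.0.16 in R 4.3.3 (TMM, filterByExpr, robust quasi-likelihood test, Benjamini-Hochberg adjustment over all genes tested, threshold 0.05). The shared response used counts summed over replicates in 16 groups with line as a term, and differences in response between lines, given for related genes only, used F tests over 48 libraries. CPM were scaled by TMM over all 48 libraries at once, so ratios of printed CPM can differ slightly from the fitted fold changes, and the SE is that of the fit. The scripts were tested on simulated data. The 10 genes and the lists of related genes were chosen with earlier results of these data known. Related genes were named as up to 4 per list with the smallest p among those called in the shared fit, and per line as up to 5 with the largest change among those called at 10 CPM or more with no overlap between treatments. Likeness used log2(CPM + 1). Alternatives were RLE and library-total scaling, no filter, DESeq2 1.42.0, a replicate block, 1 fit of all libraries, each library or line left out, and subtraction of a length and abundance trend.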

Additional observations from a re-analysis of the deposited data

Results flagged for a closer look

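Among the related genes picked by the naming rule, 11 were called in opposite directions in different lines and are listed here. Listing also required an adjusted p below 0.05 for the difference in response between lines. That p came from edgeR's quasi-likelihood F test over 48 libraries, adjusted over all genes. As a condition for listing it is no further evidence, and 58.7% of all genes tested met it. The share of all genes with opposite calls is not given. ADM was higher in KU1919 (log2 fold change 2.56), SW780 (0.71) and TCCSUP (0.62) and lower in T24 (-0.61), 639V (-0.47) and VMCUB (-0.67), with an adjusted p of 1.01e-19 for the difference. CA12 was higher in 5 lines, up to 3.24 in HT1376, and lower in TCCSUP (-0.18), with an adjusted p of 3.3e-18. SLC2A6 was higher in HT1376 (1.92), HT1197 (0.77) and VMCUB (0.23) and lower in TCCSUP (-0.31), with an adjusted p of 1.5e-17. EPAS1 was higher in VMCUB (1.34) and 639V (1.04) and lower in SW780 (-0.69) and TCCSUP (-0.28), with an adjusted p of 2.57e-14.

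ANGPTL4 was higher in KU1919 (1.32) and T24 (0.67) and lower in HT1376 (-0.47) and VMCUB (-1.33), with an adjusted p of 5.61e-13. PLOD2, a collagen-modifying hydroxylase, was higher in HT1197 (0.71) and SW780 (0.16) and lower in T24 (-0.44) and TCCSUP (-0.31), with an adjusted p of 1.27e-12. STC2 was higher in VMCUB (1.04), KU1919 (0.54), HT1376 (0.41) and SW780 (0.19) and lower in 639V (-0.45), with an adjusted p of 5.74e-12. SLC2A8, a glucose transporter, was higher in KU1919 (0.97) and VMCUB (0.28) and lower in SW780 (-0.53), with an adjusted p of 5.35e-11. ENO2 was higher in VMCUB (0.73), HT1197 (0.45) and SW780 (0.31) and lower in TCCSUP (-0.18) and 639V (-0.12), with an adjusted p of 1.83e-09. SLC16A7, a pyruvate and lactate carrier, was higher in HT1197 (0.67) and lower in TCCSUP (-0.95) and SW780 (-0.18), with an adjusted p of 1.4e-07. ANKRD37 was higher in SW780 (0.48) and lower in TCCSUP (-1.09) and HT1376 (-0.55), with an adjusted p of 3.39e-07.

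Among the 10 glycolytic genes HK2 stood out, since all CPI-0209 libraries lay above all DMSO libraries in HT1376 (log2 fold change 0.177) and below them in KU1919, SW780, 639V and TCCSUP. As HK2 was chosen with these values known, that difference is a description and was not tested here.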

How the results depend on the processing

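Of 1160 single values under other settings, 1120 kept the sign of the main value. Where the main value was 0.1 or more in size, 909 of 914 kept it. The 5 that did not came from subtracting the trend in transcript length and abundance, a setting chosen after seeing the data, and 2 of them were called values, GAPDH at 0.17 and ENO1 at 0.0875 in SW780. The counts of called genes moved far more than the fold changes, and the cause was not tested. For most of these settings the share of all genes called is not given, so nothing about these genes is read from a count that moved.

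With 1 fit of all 48 libraries, the 10 glycolytic genes had 1 lower in HT1197, 3 in KU1919, 5 in T24 and 2 in 639V, and 0 higher in HT1376, while the related genes had 1 lower in HT1197, 21 in KU1919, 19 in T24, 9 in 639V and 29 in VMCUB, and 16 higher in KU1919 and 15 in T24. With no filter HT1376 had 5 glycolytic genes lower and 0 higher, KU1919 2 lower, and the shared fit 5 related genes lower. With DESeq2, 5 glycolytic genes were lower in HT1376, 2 in KU1919, 2 in T24 and 7 in the shared fit, and related genes had 12 lower in KU1919, 7 in T24, 27 in VMCUB and 24 in the shared fit, with 9 higher there. RLE factors gave 2 lower in KU1919. Library totals gave 1 glycolytic gene higher in SW780 and in 639V and 2 lower in 639V, related genes 1 lower in T24, 12 in 639V and 2 in the shared fit, with 7 higher there. They also moved the log2 fold between the highest and lowest DMSO line to 1.85 for PFKP, 1.20 for ALDOA, 1.65 for TPI1, 1.82 for PGK1, 2.58 for PGAM1, 1.08 for ENO1 and 2.34 for LDHA.

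With a replicate block, 0 glycolytic genes were higher in HT1376, 2 were lower in KU1919 and 2 in VMCUB, and related genes had 2 lower in KU1919, 0 in T24 and 10 higher in VMCUB. Same-numbered libraries correlated at -0.622 to 0.30, with 4 of 24 pairs above 0.1 and no line with all its pairs above it. With 3 libraries per group, these values cannot show whether same-numbered libraries shared a culture or batch.

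In the shared fit, leaving out HT1376 gave 0 glycolytic and 2 related genes lower, and leaving out KU1919 gave 3 glycolytic genes lower. Without SW780 there were 3 glycolytic and 3 related genes lower and 1 related gene higher, and without T24 0, 1 and 0. Without 639V 3 related genes were lower and 1 higher. Without TCCSUP 0 glycolytic and 2 related genes were lower and 1 higher, and without VMCUB 0 and 4 were lower.

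Leaving out 1 library at a time gave these ranges of glycolytic genes called lower: 9 to 9 in SW780, 9 to 10 in TCCSUP, 3 to 9 in HT1197, 2 to 5 in 639V, 1 to 6 in VMCUB, 2 to 5 in HT1376, 0 to 6 in KU1919 and 0 to 0 in T24, with 0 to 1 higher in HT1376. HT1197 fell to 3 without DMSO replicate 2 and to 4 without DMSO replicate 3 or CPI-0209 replicate 2 or 3, and VMCUB to 1 without any CPI-0209 library or DMSO replicate 1. 639V fell to 2 without CPI-0209 replicate 3 and to 3 without DMSO replicate 2. HT1376 fell to 2 without CPI-0209 replicate 1 or 3 and reached 5 without DMSO replicate 3, and VMCUB reached 6 without DMSO replicate 3. For related genes the ranges were 65 to 67 lower and 23 to 25 higher in SW780, 42 to 55 and 16 to 21 in TCCSUP, 23 to 34 and 23 to 31 in HT1376, 16 to 28 and 19 to 23 in 639V, 7 to 32 and 7 to 21 in VMCUB, 6 to 12 and 13 to 15 in HT1197, 0 to 26 and 7 to 25 in KU1919, and 0 to 2 and 3 to 10 in T24.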

Other observations

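A few genes at the edges of the pathway, looked up after their values were seen, moved in ways not described above (edgeR's quasi-likelihood test, adjusted over all genes of the line). EGLN3, a prolyl hydroxylase that is itself induced by hypoxia, was called higher in 7 of 8 lines. It averaged 5.58 ± 0.53 CPM with CPI-0209 and 0.678 ± 0.028 CPM with DMSO in T24 (log2 fold change 3.05 ± 0.14, adjusted p = 1.75e-04; SD, n = 3 each), and in SW780, the only line not called, 51.1 CPM with either treatment (-0.03 ± 0.05).

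PCK1, the enzyme that starts gluconeogenesis from oxaloacetate, averaged 8.76 ± 1.45 CPM with CPI-0209 and 0.110 ± 0.037 CPM with DMSO in 639V (6.29 ± 0.22, adjusted p = 1.07e-10). It was also called higher in HT1376, T24 and SW780, where it stayed at or below 0.491 CPM on average. FBP1, which reverses the phosphofructokinase step, averaged 3.88 ± 0.29 CPM with CPI-0209 and 8.63 ± 0.36 CPM with DMSO in TCCSUP (-1.11 ± 0.10, adjusted p = 9.72e-07). Over the 8 lines its shared log2 fold change was 0.98 ± 0.68 and not called, so the fall in TCCSUP went against the mean of the lines. PDP1, the phosphatase that reactivates pyruvate dehydrogenase, was called higher in 5 of 8 lines, with 18.1 ± 0.5 CPM with CPI-0209 and 11.9 ± 0.4 CPM with DMSO in SW780 (0.57 ± 0.06, adjusted p = 1.18e-07).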
